A study of Mus musculus with 4 samples.

Results

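Of 9738 restriction sites scored for 5-hydroxymethylcytosine (5hmC) in mouse blood progenitors, 1243 lay within 1000 bp of another listed site on the same autosome. These close sites were chosen from the position column alone, whatever their scores. They made up 13.0% of the 9542 listed sites on chromosomes 1 to 19 and fell into 590 clusters, a cluster being a series of listed sites with no gap above 1000 bp. The remaining 8299 autosomal sites were isolated and served for comparison. The cells were LSK cells, the bone marrow fraction without lineage markers and with Sca-1 and c-Kit in which blood stem cells and early progenitors are found. They were taken from 2 wild type mice and 2 Tet1 knockout mice, all aged 6 months, with 1 library per mouse. The labels do not give the strain, sex or Tet1 allele of the mice or say whether the loss was limited to a tissue, and scores at restriction sites allow no check of the cell type or of the knockout.

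TET enzymes oxidise 5-methylcytosine, the methylated base found mostly where a cytosine precedes a guanine, to 5hmC. Tet1 is one of the 3 mammalian TET enzymes, and 5hmC is both a step towards loss of methylation and a mark that can persist in the genome. Methylation states of neighbouring CpGs are generally alike over short distances, so sites that lie close together offer a look at whether neighbouring readouts moved together. In the assay, named HELP-GT in the labels, DNA was cut with HpaII and MspI, which share a recognition sequence and are blocked by different modifications of its cytosines. EcoP15I then freed a short stretch next to the cut, and these tags were sequenced. Each site then carried a score between 0 and 100 whose formula the sources used here do not give, nor whether a high or a low score means more 5hmC, so results are stated as scores. The depth behind a score is unknown.

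The listed sites share a property of their scores that bears on every comparison between genotypes and between replicates. All 1243 close sites had both scores of at least 1 genotype below 50, as had all 9738 listed sites. The list thus depends on the same scores that the genotypes are compared on, and a genotype difference among its sites is no independent sign of a change. Groups of 4 scores are given below in the order wild type 1, wild type 2, knockout 1 and knockout 2, and signs of genotype differences refer to the scores as deposited. Scores were present in all 4 libraries at 1231 close and 8211 isolated sites, and these were compared. The 12 close sites with a blank each belonged to a cluster left with 1 scored site, so 578 clusters could be given means.

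Most clusters were pairs of sites, and most gaps were 200 bp or less. There were 545 clusters of 2 sites, 35 of 3, 6 of 4, 1 of 5, 2 of 6 and 1 of 7. The 653 gaps between close neighbours had a median of 175 bp (quartiles 112 and 318 bp, range 5 to 998 bp), and 60.3% of them were 200 bp or less. Isolated sites had a median distance of 39949 bp to the nearest listed site. Gaps of 100 to 119 bp were the most frequent 20-bp class with 74 pairs, and a second group of 25 pairs lay at 320 to 339 bp, against 4 pairs at 340 to 359 bp. One exact distance, 184 bp, recurred in 12 pairs on 9 chromosomes, while the next most frequent, 101 bp, occurred in 8 pairs on 4 chromosomes. Several gaps of 101 bp were steps between evenly spaced sites of 1 cluster on chromosome 6. Clusters on chromosome 17 that carried the same scores gave several gaps of 324 bp. Such gaps are not separate recurrences. Recurring gaps were noticed after the data were seen. No genome of the mm9 build was used, so the sequence around these recurring gaps, genes and repeats are not described here. At the edge of the rule, the widest gap inside it was 998 bp, between positions 168645399 and 168646397 of chromosome 2. The first of these sites scored 27.4, 38.7, 78.0 and 76.7, and the second 21.5, 73.2, 40.1 and 36.9. The narrowest gap outside it was 1004 bp, between positions 123426349 and 123427353 of chromosome 8, with scores of 55.3, 58.3, 47.8 and 34.0 at the first site and 49.8, 45.8, 51.0 and 63.3 at the second.

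**Figure D1:**
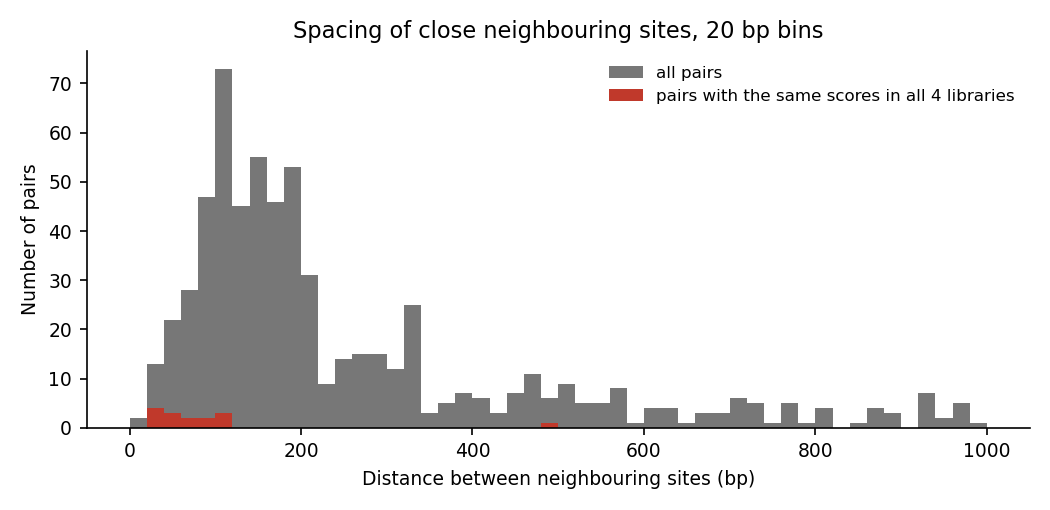
Number of pairs of neighbouring close sites (vertical axis) by the distance between them in bp (horizontal axis, bins of 20 bp), for pairs scored in all 4 libraries. Grey bars are all 641 pairs and red bars the 15 pairs with the same scores in all 4 libraries; most pairs lie under 200 bp, and a separate group stands at 320 to 339 bp.

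Close sites were distributed over all 19 autosomes. Their share of the listed sites ran from 9.06% on chromosome 1 (46 of 508 sites, 95% Wilson interval 6.86 to 11.9) to 18.0% on chromosome 19 (51 of 283 sites, 14.0 to 22.9). Chromosome 5 held the largest number, 124 close sites in 59 clusters. The intervals cover counting error over sites only, and sites of 1 cluster are not independent.

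A part of the close sites carried exactly the same scores as another site. Here 2 sites are said to share scores when all 4 deposited values are equal to every printed decimal. This was the case for 91 of 1231 close sites (7.39%, 95% Wilson interval 6.06 to 8.99) and for 364 of 8211 isolated sites (4.43%, 4.01 to 4.90). Over the whole list, 497 sites fell into 177 groups of shared scores, of which 121 lay on 1 chromosome and 56 on several. Among the close sites, 29 shared their scores with a site of their own cluster and 62 only with sites elsewhere. Isolated sites have no cluster to share scores within, so the shares of close and isolated sites are not on equal terms. Sites that share scores come in groups, whereas the intervals treat sites as independent. The sources used here do not give how tags matching several places in the genome were counted, and its part in these equal scores was not tested.

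Equality in at least 1 library, which includes equality in all 4, was found in 180 of 8684 neighbouring pairs beyond 1000 bp, and 65 were equal in all 4. Of the 641 close pairs, 19 were equal in at least 1 library and 15 in all 4.

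Equal scores inside a cluster occurred in 10 clusters, among them several with evenly spaced sites. On chromosome 5, the 3 sites from 103456061 to 103456219 were 79 bp apart and all scored 44.0, 44.2, 57.2 and 60.3. On chromosome 16, the 3 sites from 15899064 to 15899244 were 90 bp apart and all scored 51.6, 46.0, 32.4 and 49.7. Each of these clusters therefore gave 1 set of scores, not 3. On chromosome 8, 4 sites from 88755836 to 88755977 were 47 bp apart, and the first 3 shared scores of 26.1, 49.4, 55.3 and 48.7. On chromosome 6, 5 of the 6 sites from 117731461 to 117732379 followed each other at 101 bp, and 4 of these shared scores of 41.5, 48.9, 56.3 and 45.9. The longest array, 7 sites on chromosome 13 from 59579217 to 59579452 at steps of 39 or 40 bp, held only 3 different sets of scores. Its most frequent set, at 4 sites, was 11.9, 60.4, 38.8 and 22.2, so the wild type mice lay on either side of both knockout mice.

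**Figure D2:**
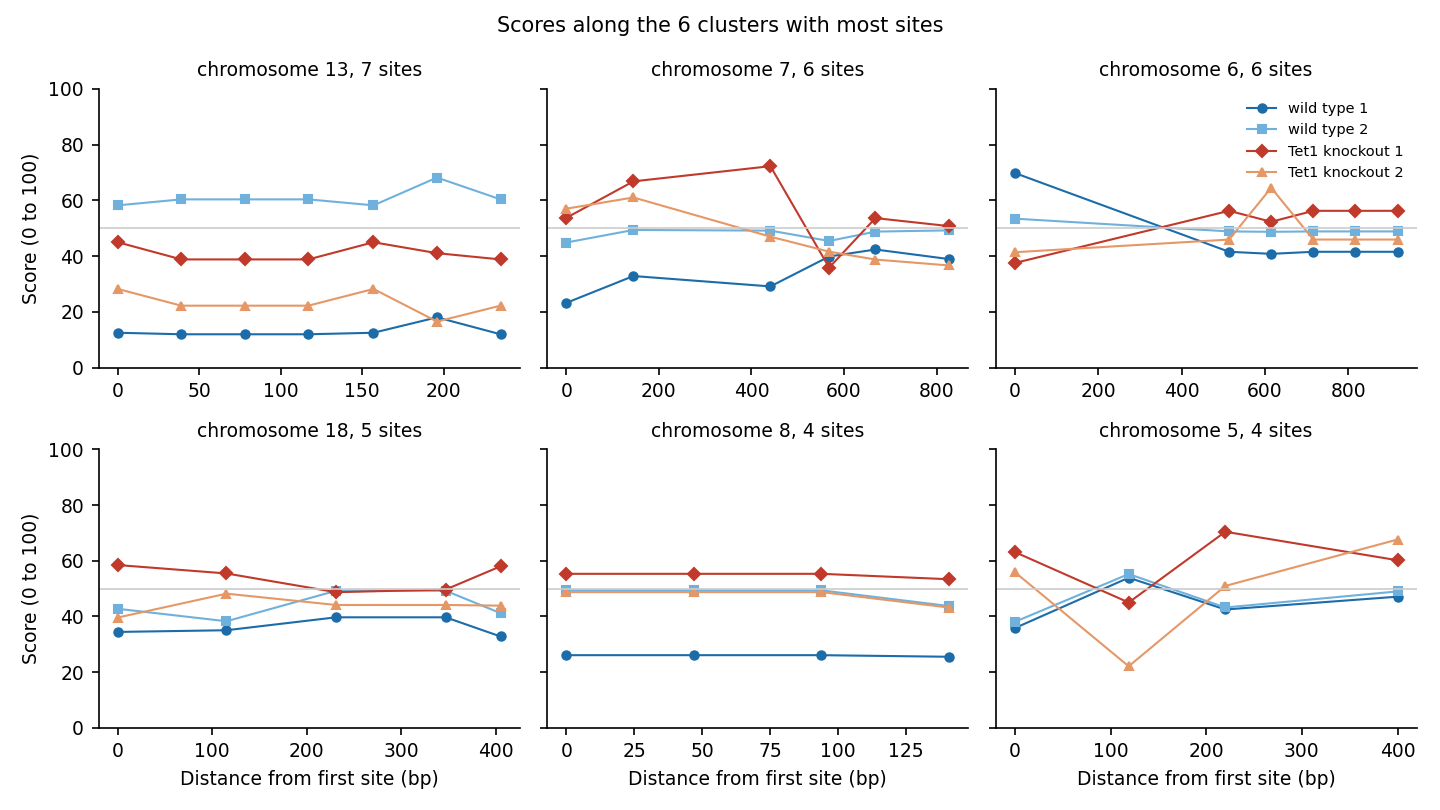
Score (vertical axis, 0 to 100) against distance in bp from the first site of the cluster (horizontal axis) for the 6 clusters with most sites; each line is 1 library (blue wild type, red and orange Tet1 knockout) and each point 1 site, with a grey line at 50. The flat stretches on chromosomes 13, 6 and 8 are evenly spaced sites with equal scores, whereas the libraries cross along the clusters on chromosomes 7 and 5.

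Whole clusters also recurred with the same scores at other places. In 16 clusters every score set occurred in another cluster of the same size. On chromosome 4, clusters of 2 sites starting at 41633074, 42053208, 42325211 and 42693176 carried the same pair of score sets, 45.0, 44.3, 64.5 and 72.9 for 1 site and 27.4, 44.9, 39.0 and 47.9 for the other. Their spans were 166 bp in the first and 168 bp in the others, and the clusters from 42053208 and 42693176 held the score sets in the reverse order of the others. On chromosome 8, clusters starting at 19955568, 71974247 and 72043655 had the same 2 score sets in the same order, each with a span of 470 bp. Of the 15 pairings of such clusters, 7 had the same order and 8 the reverse order, and 1 joined different chromosomes, with spans of 122 bp on chromosome 1 from 100356232 and 125 bp on chromosome 6 from 146724741. These repeated values are not separate measurements, and several results below are also given without the 91 close sites that share scores.

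Mean scores of close and isolated sites differed by little, and in opposite directions in the genotypes. Close sites averaged 43.2, 43.9, 46.0 and 44.6 score units. Isolated sites averaged 42.3, 42.4, 46.7 and 45.0. Close sites thus lay above isolated sites in both wild type libraries, by 0.901 and 1.50 score units, and under them in both knockout libraries, with differences of -0.662 and -0.408. Close minus isolated averaged 0.33 ± 1.04 over the libraries (SD, n = 4). An exact two-sided sign-flip permutation did not tell it from 0 (p = 0.625, smallest possible 0.13). This SD and test pool the genotypes, whose values had opposite signs, so they do not measure the spread between replicates alone. Without wild type replicate 2 the average was -0.0540. It was 0.0568 without sites that scored exactly 0 or 100 in any library.

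Knockout minus wild type lay lower at close sites than at isolated sites. Close sites averaged 43.6 ± 0.497 in wild type mice against 45.3 ± 1.01 in knockout mice (SD, n = 2 per genotype), a difference of 1.75 score units that turned to -1.50 after median centring and -1.53 after quantile normalization. Isolated sites averaged 42.4 ± 0.0732 against 45.8 ± 1.19, a difference of 3.49. Both comparisons gave p = 0.33 in an exact two-sided permutation of the library labels, the smallest value that 2 libraries against 2 can give. The test of the difference itself, on each library's close minus isolated mean, gave -1.74 (exact permutation p = 0.33, again the smallest possible). Without the sites that share scores it was -1.91, after median centring -1.74, and it stayed between -2.03 and -1.51 when any 1 library was left out. The difference over close sites, 1.75, was 1.05 without knockout replicate 1. Median centring shifts the close and the isolated difference by the same amount, so which of them is larger in size depends on the scale.

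Scores below 50 showed the same contrast. In wild type mice, 74.98% (95% Wilson interval 72.5 to 77.3) and 72.5% (69.98 to 74.96) of close sites scored below 50, against 79.5% (78.6 to 80.3) and 78.0% (77.1 to 78.9) of isolated sites. In knockout mice, 63.5% (60.8 to 66.2) and 66.3% (63.6 to 68.9) of close sites did, against 61.4% (60.3 to 62.4) and 63.4% (62.3 to 64.4) of isolated sites. The share was lower at close sites in both wild type libraries and higher in both knockout libraries. Sites whose only score of 50 or more was in 1 knockout library were 22.6% of close and 29.0% of isolated sites. Sites whose only score of 50 or more was in 1 wild type library were 19.01% and 16.1%, and sites below 50 in both libraries of the knockout alone 16.7% (206 sites) and 13.2%. Sites below 50 in both libraries of the wild type alone were 23.8% (293 sites) and 23.1%, and sites below 50 in all libraries 17.9% (220 sites) and 18.6%.

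**Figure D3:**
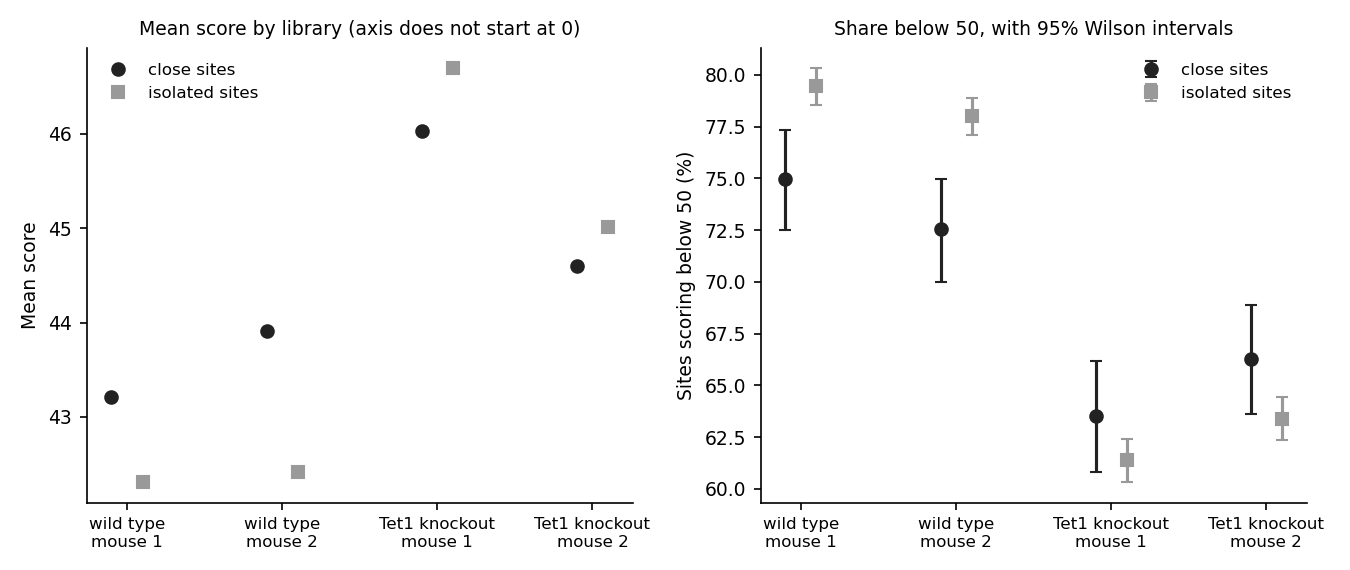
Left, mean score (vertical axis, not starting at 0) in each of the 4 libraries (horizontal axis) over 1231 close sites (black circles) and 8211 isolated sites (grey squares). Right, percentage of the same sites scoring below 50, with 95% Wilson intervals. On the deposited scale, close sites lie nearer to each other across genotypes than isolated sites do.

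Scores at the ends of the scale were rarer among close sites in every library. A score of exactly 0 or 100 was given at 0.487%, 0.325%, 0.325% and 0.731% of close sites. The shares at isolated sites were 0.999%, 0.986%, 0.658% and 1.83%. The mean difference was -0.650 ± 0.326 percentage points (SD, n = 4 libraries, exact sign-flip permutation p = 0.13, the smallest possible). Replicates of the knockout were also more alike at close sites. Across close sites Pearson's r between the knockout libraries was 0.356, against 0.215 across isolated sites, whereas between the wild type libraries it was 0.151 against 0.173. Without the sites that share scores these values were 0.343 and 0.214 in the knockout and 0.173 and 0.173 in the wild type. Sites of 1 library are not independent replicates, and these correlations describe the libraries.

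On the deposited scale, knockout minus wild type was lower at listed sites with a nearer neighbour, though not in every bin. Sites with a neighbour at 51 to 200 bp (n = 696) averaged 43.6, 44.3, 45.8 and 44.8, with a knockout minus wild type difference of 1.37. The difference was 2.46 at 201 to 500 bp, 2.75 at 501 to 1000 bp, 3.41 at 1001 to 5000 bp, 3.47 at 5001 to 50000 bp and 3.51 beyond that. At 1 to 50 bp, where only 53 sites lay, it was -0.620, and the wild type mice differed more from each other (34.9 and 47.6) than from the knockout (42.8 and 38.5). Without the sites that share scores, the difference was 1.04 at 51 to 200 bp, 2.87 at 201 to 500 bp and 2.56 at 501 to 1000 bp, and -4.38 over 35 sites at 1 to 50 bp. The order of these bins thus does not hold throughout, and no test was made of the trend. The bins were not recomputed after median centring, which turned the difference over all close sites to -1.50. Which bins differ most in size therefore depends on the scale.

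By chromosome and on the deposited scale, the knockout mean over close sites exceeded the wild type mean on 14 of 19 autosomes, compared with 19 of 19 for isolated sites. The difference ran from -5.49 on chromosome 3 to 7.34 on chromosome 14. On chromosome 3, with 36 listed close sites in 17 clusters, close sites averaged 43.9, 50.4, 42.7 and 40.7, while the isolated sites there differed by 3.92 in the other direction. On chromosome 14, with 41 listed close sites, they averaged 40.9, 41.3, 50.6 and 46.3. The knockout libraries were both above the wild type libraries on 9 chromosomes and both below on 3, which were chromosomes 3, 9 and 17. The chromosomes share the same 4 libraries, and these counts carry no test.

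Neighbouring close sites had scores that were weakly related. Over 641 pairs of neighbours scored in all libraries, Pearson's r was 0.153, 0.161, 0.156 and 0.131. Listed neighbours more than 1000 bp apart (8684 pairs) gave -0.00683, 0.0169, 0.0301 and 0.00590 in the same order. Each of the 4 libraries thus had a higher r among close pairs. Without sites that share scores, r over the remaining 575 close pairs was 0.107, 0.139, 0.158 and 0.109. Points share a library and many share a locus, so r is given without a p-value, and it is small in every library. At the same close site, r was 0.151 between the wild type mice and 0.356 between the knockout mice. Neighbour r was thus near replicate r in the wild type and lower in the knockout. Without sites that share scores, replicate r was 0.173 and 0.343, above neighbour r in both genotypes. Across genotypes at the same close site, r ran from -0.180 to -0.0955. The listing rule ties the scores of 1 genotype at a site, but not those of neighbouring sites. Replicate r is therefore no plain benchmark for neighbour r.

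The relation was not even over distance. At 51 to 200 bp r was 0.118, 0.241, 0.187 and 0.155 over 355 pairs, positive in all libraries. At 201 to 500 bp it was 0.216, -0.0840, 0.0530 and -0.0231 over 167 pairs, and at 501 to 1000 bp -0.0554, 0.263, 0.135 and 0.190 over 88 pairs. The libraries of each genotype differed in sign at 201 to 500 bp, and those of the wild type also at 501 to 1000 bp. The highest values, 0.316, 0.108, 0.631 and 0.410, belonged to the 31 pairs no more than 50 bp apart, of which 7 had the same scores in all 4 libraries. Without sites that share scores, 16 such pairs were left, and r was -0.0183, -0.165, 0.456 and 0.254.

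**Figure D4:**
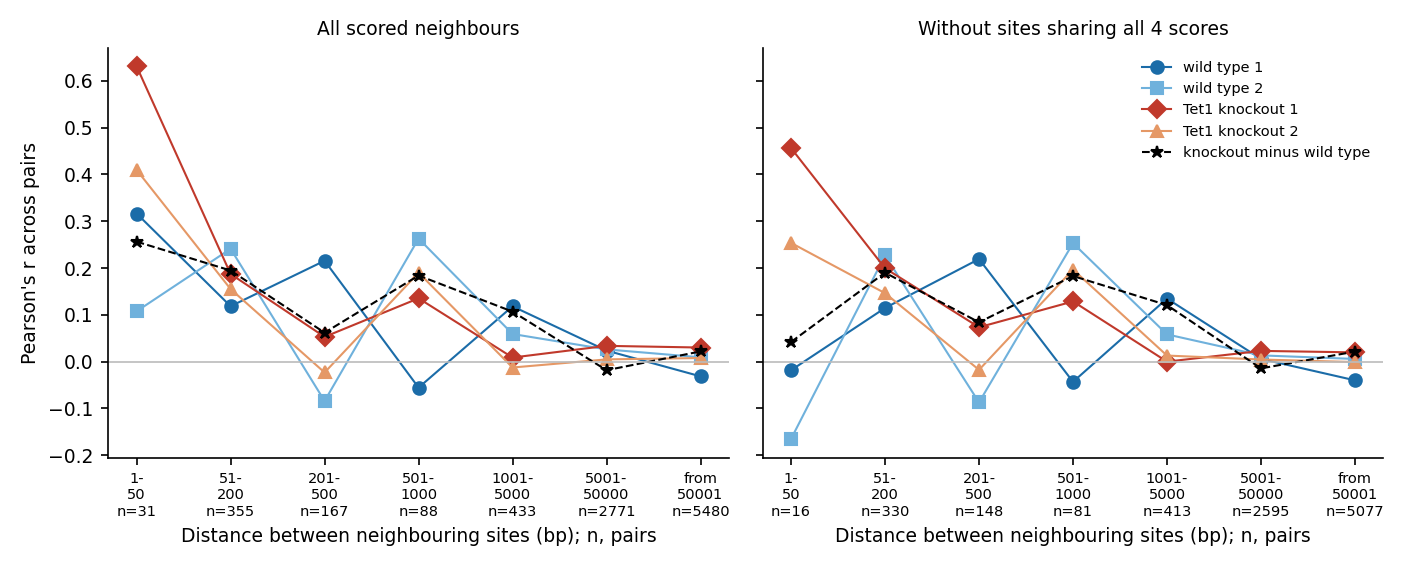
Pearson's r between the scores of neighbouring listed sites (vertical axis) by the distance between them in bp (horizontal axis, with the number of pairs n), for each library and, as black stars, for the knockout minus wild type difference. The left panel uses all scored neighbours and the right panel leaves out sites that share all 4 scores, where the values at 1 to 50 bp drop in every library.

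Score gaps between close neighbours were somewhat larger than gaps between mice at the same site. Neighbour gaps were largest in knockout replicate 2, whose scores also spread most over sites. The median absolute gap between neighbouring close sites was 10.5, 10.8, 10.4 and 13.9 score units. Between the wild type mice at the same close site it was 9.49, and between the knockout mice 9.86. The listing rule holds both scores of at least 1 genotype below 50 at a site but does not tie neighbouring sites. Gaps between mice and gaps between neighbours are thus not on equal terms. Pairs more than 1000 bp apart had gaps of 12.1, 12.8, 13.4 and 17.1. Within clusters the SD of scores was 12.9, 13.0, 11.7 and 15.7, against 14.0, 14.3, 12.8 and 16.8 over all sites of these clusters. Differences between clusters accounted for a fraction of 0.142, 0.167, 0.169 and 0.136 of the variance, so most of the spread lay inside clusters. That spread was not separated from the variation between mice at the same site.

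Genotype differences at neighbours pointed the same way somewhat more often over close pairs as a whole, though not at every distance. The knockout minus wild type difference had the same sign at both sites in 380 of 641 close pairs (59.3%, 95% Wilson interval 55.4 to 63.0), against 52.1% (51.03 to 53.1) of pairs more than 1000 bp apart. Pearson's r of the difference was 0.156 over close pairs and 0.0132 over the others. At 201 to 500 bp the share was 55.1% (47.5 to 62.4) and r 0.0619, below the pairs at 1001 to 5000 bp. These were nearer to the close pairs than to more distant ones, with 56.4% (51.6 to 60.9) of the same sign and r = 0.107. Without sites that share scores, 58.3% (54.2 to 62.2) of 575 close pairs had the same sign, with r = 0.151. In 210 close pairs both sites had knockout scores wholly above or wholly below the wild type scores. Of these, 89 were higher in the knockout at both sites, 47 lower at both and 74 opposite, so 64.8% (58.1 to 70.9) pointed the same way, against 54.2% (52.3 to 56.1) of pairs beyond 1000 bp. At 1001 to 5000 bp the same share was 63.5% (55.5 to 70.8). Without sites that share scores it was 64.2% over close pairs and 64.5% at 1001 to 5000 bp.

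**Figure D5:**
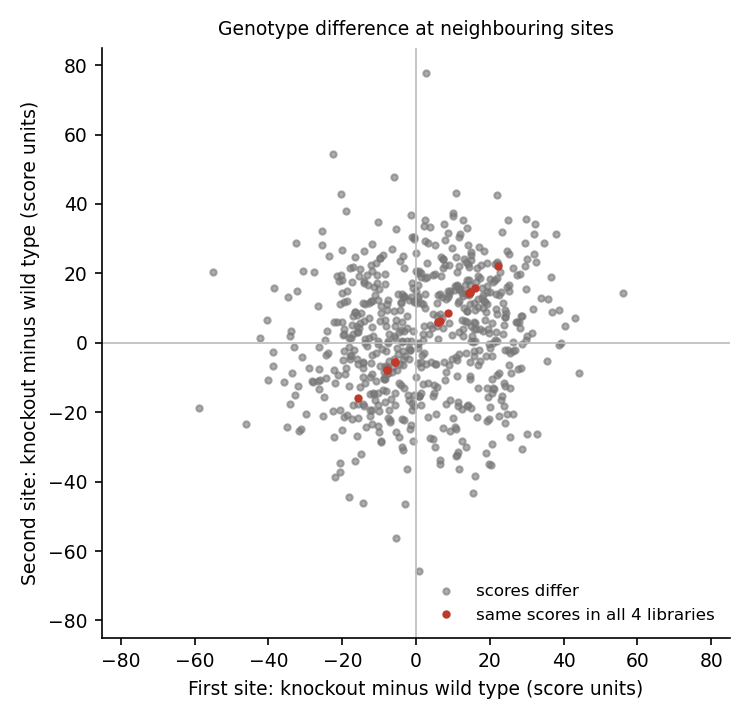
Knockout minus wild type difference in score units at the first (horizontal axis) and second (vertical axis) site of each of 641 pairs of close neighbours; red points are the 15 pairs with equal scores in all 4 libraries, some of which coincide. The cloud is broad, all 4 quadrants are filled, and equal pairs lie on the diagonal by construction.

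None of the close sites differed between genotypes past the adjusted threshold on the deposited scale, a result that changed with the scale and the design of the fit. In a limma fit (empirical Bayes with a mean-variance trend, Benjamini-Hochberg adjustment over all 9633 sites scored in every library, threshold 0.05), 0 of 1231 close sites were higher and 0 lower, where the share called over all sites was 0% in each direction, and the smallest adjusted p among close sites was 0.118. The same limma test called 29 higher and 18 lower on log2(score + 1). With the mouse number as a replicate block it called 2 higher and 1 lower. Shares over all sites are not given for these or the other alternatives below, so their counts describe nothing particular to close sites. At an unadjusted p of 0.05, 155 close sites were higher in the knockout (12.6%, against 14.2% of all sites) and 115 lower (9.34%, against 8.15%). These shares lay near those of all sites, and the split turned to 99 higher and 153 lower after median centring and 80 and 178 after quantile normalization. Leaving out wild type replicate 1 gave 69 and 73, and leaving out wild type replicate 2 gave 68 and 61. It was 110 and 70 without knockout replicate 2, and 136 and 109 without sites that share scores. Genotypes did not overlap, with higher knockout scores, at 411 close sites (33.4%, against 34.2% of all sites), and with lower ones at 290 (23.6%, against 21.0%). Centring on the median gave 345 and 340 sites, and leaving out sites that share scores 374 and 281. The median difference was 2.10 over close sites and 4.52 over all sites, and over close sites it turned to -1.15 after median centring and -0.801 after quantile normalization.

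No cluster mean passed the threshold on the deposited scale, whereas 2 clusters were called higher on log2(score + 1) (limma adjusted p = 0.0395 and 0.0495). The same limma fit over 8975 loci, in which a cluster counted once and an isolated site counted once, called 0 of 578 clusters higher and 0 lower with Benjamini-Hochberg adjustment, against 0% of all loci in each direction. The smallest adjusted p of a cluster was 0.127. At an unadjusted p of 0.05, 45 clusters were higher (7.79%, against 14.2% of loci) and 20 lower (3.46%, against 7.77%). Cluster means average several sites, and their differences had an SD of 13.6 score units, against 18.6 over isolated sites. The unweighted fit treats both kinds of locus alike, so these lower shares cannot be read as fewer changes in clusters. Weighting each locus by its number of sites instead gave 87 and 47 of the 578 clusters. Median centring gave 28 and 36, and quantile normalization 25 and 43. Shares over all loci are not given for the alternatives. The counts were 25 and 14 without wild type replicate 1 or knockout replicate 2, and 12 and 6 without wild type replicate 2. Cluster means did not overlap, with the knockout higher, in 191 clusters (33.0%, against 34.2% of loci), and with the knockout lower in 129 (22.3%, against 20.8%). Cluster differences ran from -38.9 to 40.2 score units with a median of 2.27, which turned to -0.982 after median centring and -1.10 after quantile normalization. In 76 clusters (13.1%) every site had both knockout scores above both wild type scores, in 40 (6.92%) every site had them below, and 74 (12.8%) held sites of both kinds. Neighbouring pairs beyond 1000 bp gave 12.2%, 4.39% and 14.0% for these kinds. The share lower at every site was thus higher in clusters, while the other shares lay near those of the distant pairs. No test was made, and some clusters hold more than 2 sites.

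The clusters with the largest positive differences among the 76 were pairs of sites. On chromosome 1, the sites at 9629210 and 9629539 scored 16.4, 12.1, 79.0 and 61.7 at the first, and 46.2, 42.6, 63.9 and 53.3 at the second. The cluster difference of 35.2 ± 8.58 (SE, limma adjusted p = 0.131) thus came mostly from the first site. On chromosome 11, the sites at 106875953 and 106876256 were alike, with 30.8, 17.6, 59.3 and 64.8 at the first and 34.4, 26.2, 61.7 and 61.7 at the second. The mean difference there was 34.6 ± 9.15. On chromosome 2, the site at 112496324 scored 39.4, 36.2, 78.3 and 61.7, and its neighbour at 112496466 scored 27.9 and 23.3 against 70.0 and 49.6. All 3 clusters had wild type scores below 50 at both sites. The listing rule fixes this wherever both knockout scores lie above both wild type scores, so it is no trait of these clusters.

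The other 3 of these clusters differed by 31.7 to 32.7 score units. On chromosome 6, the sites at 48013955 and 48014680 scored 45.5 and 40.02 against 65.4 and 79.6, and 28.1 and 7.36 against 69.3 and 37.6. On chromosome 2, the sites at 172118512 and 172118681 scored 46.9 and 38.5 against 62.2 and 67.2, and 37.0 and 6.32 against 42.1 and 86.3, so the knockout mice were far apart at the second site. On chromosome 5, the sites at 53551911 and 53552095, which lie 184 bp apart, scored 43.6 and 36.8 against 69.1 and 80.5, and 40.7 and 24.3 against 57.7 and 64.9. The limma adjusted p of these 6 clusters ran from 0.131 to 0.180. The cluster from 172118512 differed by 32.3, and by 19.995 without knockout replicate 2.

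Among the 40 clusters lower at every site, those with the largest negative differences were also pairs. On chromosome 18, the site at 20160408 scored 57.3, 82.9, 15.2 and 7.10, and its neighbour at 20160458 scored 50.1 and 45.6 against 28.8 and 29.3. Their mean difference was -38.9 ± 11.6 (SE, limma adjusted p = 0.152). On chromosome 19, the sites at 47587530 and 47587714, again 184 bp apart, scored 70.4 and 78.1 against 41.5 and 38.8, and 60.3 and 59.4 against 34.5 and 49.6. Their difference of -25.9 ± 6.67 had the smallest adjusted p of the 6, 0.137. On chromosome 4, the sites at 9008159 and 9008959 scored 50.8 and 90.6 against 49.1 and 22.5, and 58.4 and 69.0 against 40.1 and 38.5. Wild type mouse 1 and knockout mouse 1 were nearly level at the first of these sites, and the cluster difference of -29.6 was -17.0 without wild type replicate 2.

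In the other 3 the replicates of a genotype were far apart at some site. On chromosome 7, the sites at 151288106 and 151288188 scored 59.4 and 71.1 against 46.6 and 20.5, and 50.6 and 88.7 against 48.3 and 40.04. On chromosome 19, the sites at 46728798 and 46728956 scored 68.6 and 49.1 against 36.5 and 18.7, and 46.7 and 66.2 against 39.2 and 24.2. On chromosome 7, the sites at 26031311 and 26031572 scored 67.1 and 52.4 against 36.0 and 42.5, and 82.5 and 36.4 against 21.1 and 28.7. Their differences ran from -28.6 to -27.5 with limma adjusted p-values of 0.191 to 0.234. The cluster from 151288106 gave -16.2 without wild type replicate 2, and that from 26031311 gave -12.3 when wild type replicate 1 was left out and -42.7 when wild type replicate 2 was. The 11 scored pairs at a distance of 184 bp did not share a direction, with both differences positive in 4, both negative in 3 and opposite signs in 4.

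Other clusters held sites with genotype differences of opposite sign, as large as those of the clusters above. On chromosome 12, the 3 sites at 106126375, 106126447 and 106126527 had differences of 24.8, -20.6 and -37.3 score units within 152 bp. The first scored 42.5, 32.4, 55.7 and 68.7, and the last 61.8, 60.4, 36.3 and 11.2. On chromosome 7, the site at 28150699 scored 51.6 and 68.6 against 34.8 and 20.3, and its neighbour at 28150997 scored 46.8 and 20.9 against 65.2 and 59.8. On chromosome 2, the sites at 166594867 and 166594986 scored 18.5 and 28.5 against 44.5 and 59.8, and 57.7 and 71.6 against 37.4 and 31.0. A further pair on chromosome 2, at 157707557 and 157707960, had differences of 32.7 and -26.2. Because these sites cancel, the mean difference of each of these 3 pairs lay between -1.95 and 3.25 and says little about either site.

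Sites at the shortest distances gave both equal and unlike scores. On chromosome 1, the sites at 94330407 and 94330412, only 5 bp apart, scored 34.7, 53.8, 37.6 and 8.68 at the first and 40.04, 25.5, 25.1 and 21.7 at the second. The remaining site of that cluster, at 94330358 and 54 bp before the last, had the same scores as the last in wild type replicate 2 and knockout replicate 2 but not in the other two libraries. On chromosome 6, the sites at 52154152 and 52154167, which are 15 bp apart, scored 19.4 and 33.7 against 43.6 and 49.0, and 80.4 and 63.8 against 44.2 and 30.4. Their genotype differences were 19.8 and -34.8 and thus opposite. On chromosome 2, the sites at 25147546 and 25147573 scored 64.7 and 58.4 against 48.2 and 43.3, and 55.3 and 37.2 against 38.8 and 41.3. On chromosome 5, the sites at 135187005 and 135187032 had equal scores of 33.7, 31.3, 60.1 and 49.0, and the site 27 bp before them differed from them in the wild type libraries alone, with 37.2 and 48.9.

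Sites of larger clusters differed among themselves too. On chromosome 7, 6 sites from 89919688 to 89920515 had differences of 21.3, 22.8 and 20.5 at the first 3 sites and -3.91, 0.620 and -0.379 at the last 3. The first site scored 23.2, 44.9, 53.7 and 57.0, and the last 38.9, 49.2, 50.8 and 36.6. On chromosome 5, 4 sites from 122444057 to 122444457 had differences of 22.6, -21.0, 17.8 and 15.9, each with knockout scores wholly beyond the wild type scores. The second of them scored 53.9 and 55.2 against 45.0 and 22.1. On chromosome 18, 5 sites from 10653052 to 10653457 differed by 1.95 to 15.1, all upwards, but knockout replicate 2 averaged 44.0 beside 44.1 in wild type replicate 2. Its sites at 10653283 and 10653399 had equal scores in 3 of 4 libraries. The 45 clusters of at least 3 scored sites averaged 43.3, 47.7, 46.2 and 45.8, and the 533 clusters of 2 sites 43.4, 43.3, 46.0 and 44.6.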

How the data were processed

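For each library the authors deposited a table of sites with their score, which runs from 0 to 100 and has no stated unit. Per the submitters' processing notes, positions refer to mm9. The sources used here do not give the aligner, the handling of tags with several matches or the score formula. Tables were joined on chromosome and position, and sites with a score in all 4 libraries were used. Close sites were those 1000 bp or less from another listed site. Sites and locus means of all chromosomes were fitted with limma 3.58.1 (R 4.3.3) on untransformed scores, with a mean-variance trend and Benjamini-Hochberg adjustment. The fit was tested on simulated data. Library values were compared with exact permutation tests over libraries. Python 3.11.15 (pandas 2.3.3, scipy 1.17.1, statsmodels 0.14.6) was used otherwise. Nothing beyond 1 library per mouse is stated, so p-values measure the spread between these samples.

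The clusters named were the 6 with most sites, the 6 with the largest difference in each direction among clusters whose every site had separate genotypes, the 4 with the widest gap between a site higher and any site lower in the knockout and the 4 pairs at the shortest distance. The members, lists and tests were chosen with earlier results of these data known, and shared scores were examined after the data were seen. Other distances (500 and 2000 bp), median centring, quantile normalization, log2(score + 1), filters, left-out libraries and a replicate block were tried as alternatives, and leaving out sites that share all 4 scores was added after seeing the data.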

Additional observations from a re-analysis of the deposited data

How the results depend on the processing

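Depth per site is unknown and each genotype had 2 mice, so no call could be weighed by coverage. The mean genotype difference over close sites reversed to -1.50 with median centring and -1.53 with quantile normalization, and was 1.05 to 2.46 without 1 library each. Close minus isolated was -0.0540 to 0.669 for the mean and -2.66 to 0.236 percentage points for the share below 50 without 1 library each, both reversing without wild type replicate 2. Fitting log2(score + 1), limma called 29 close sites higher, 18 lower, 2 clusters higher and 0 lower after Benjamini-Hochberg adjustment. Shares over all sites and loci are not given for that scale or for the replicate block below. Those 2 clusters, named after their values were seen, lay on chromosome 15 from 83540334 and on chromosome 16 from 13749279, with score differences of 29.2 and 31.7. With the mouse number as a replicate block, 2 close sites were called higher and 1 lower, and 0 clusters. The labels do not say that equal numbers mark paired mice, and r of the within-genotype replicate differences was -0.0210 across sites. An unadjusted p of 0.05 gave 155 and 115 sites and 45 and 20 clusters. Sites with no overlap between genotypes made up 33.4% (higher) and 23.6% (lower), which moved to 28.0% and 27.6% with median centring, 27.0% and 26.6% with quantile normalization, and 42.7% to 45.8% and 31.8% to 35.1% without 1 library each, where fewer scores have to be separate. Same-sign pairs beyond 1000 bp moved from 52.1% to 50.7% and 50.5% with these scalings and were 50.7% to 52.9% without 1 library each. Mean r of neighbouring scores, 0.150, was 0.122 with 2000 bp, 0.169 without scores of 0 or 100 and 0.128 without sites that share all 4 scores. That of differences, 0.156, was 0.142 with 2000 bp, 0.116 on the log2 scale and 0.113 to 0.189 without 1 library each. Other causes were not tested. Among named clusters, the chromosome 13 array (-4.92) gave 0.11 on the log2 scale and -28.9 to 19.04 without 1 library each. Median centring and quantile normalization gave -0.740 and -1.86 for the 6-site cluster on chromosome 6, -2.38 and -2.41 for that from 52153847, and -0.00383 and -0.690 for the pair at 157707557. The pair at 166594867 gave 0.12 on the log2 scale. Without 1 library each, the pairs at 28150699, 166594867 and 157707557 ranged from -6.91 to 3.00, from -6.87 to 5.09 and from -4.88 to 11.4, and the cluster from 52153847 from -0.506 to 2.24. The 12 named clusters of largest difference kept their direction in each setting run. They were chosen for large differences and separate genotypes at every site. Leaving out a library or taking log2(score + 1) could therefore not turn their direction, and this is no sign of stability. Using every scored site was run for library means and shares alone, since separation of the genotypes needs all 4 scores. The SD within clusters was not recomputed under an alternative.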

Other observations

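On the X chromosome, which was left out of the comparisons above, 33 of 191 listed sites lay within 1000 bp of another, in 16 clusters. These close sites averaged 48.0 and 46.9 in wild type mice and 48.2 and 43.4 in knockout mice. The 156 isolated X sites with 4 scores averaged 43.7, 46.4, 45.0 and 40.4. None of the 5 listed Y sites was close to another. Of the 191 X and Y sites with 4 scores, 22.0% (95% Wilson interval 16.7 to 28.4) shared all 4 with another listed site.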
